A study of Mus musculus with 21 samples.

Results

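The response of bone marrow-derived macrophages labelled as Nur77 knockout to 4 h of lipopolysaccharide (LPS) was described from 6 of the 21 libraries of the series, 3 at 4 h and 3 at 0 h. The libraries were taken by column name, numbers 2, 3 and 4 at each time, and the transcript with the highest mean count stood for each gene. Nr4a1 is the gene of Nur77, an orphan nuclear receptor. Macrophages were grown from femur and tibia marrow of male C57Bl6/J mice aged 6 to 12 weeks, for 7 days in medium with 15% L929-conditioned medium, and LPS was given at 100 ng/ml. The groups were labelled-KO cells at 4 h, labelled-KO cells at 0 h (untreated), and, for comparison, 4 wild-type (WT) libraries at 4 h and 4 at 0 h from the same strain and culture. The genotype tag is cre in every library labelled KO and wt in the WT libraries, and the sources used here give neither the kind of knockout nor a promoter for a Cre. No label ties a number to an animal of its own, so the p-values rest on the spread between these libraries, which may be technical. Counts kept per library were 12301504 to 21649810 in the 6 labelled-KO libraries.

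LPS is a component of the outer membrane of Gram-negative bacteria. It is passed by Cd14 to the complex of Toll-like receptor 4 (Tlr4) and Ly96 on macrophages, and signals through the adaptor Myd88 to NF-κB and MAP kinases and through the adaptor Ticam1 to the interferon regulatory factor Irf3 and interferon beta. Secreted interferon beta acts back on the cells through its receptor and raises interferon-stimulated genes. Nr4a1 is itself an immediate early gene in macrophages.

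The targeted gene was examined first. Nr4a1 (chromosome 15, 101253902 to 101274795 on mm10) had 0.531, 0.869 and 1.21 CPM (counts scaled to library size, with trimmed mean of M-values factors) in labelled-KO cells at 4 h, against 12.4, 12.2 and 12.4 CPM at 0 h. The groups did not overlap and the log2 fold change was -3.74 (SE 0.46, edgeR adjusted p = 2.3e-07). WT cells held 1.30 to 7.25 CPM at 4 h and 13.4 to 16.2 CPM at 0 h, so the transcript was detected at 0 h under both labels. Counts outside the disrupted part of the gene check nothing, the sources used here do not say where that part lies, and the libraries are therefore named by their labels. Nr4a3, a relative of Nr4a1, had 15.2, 22.0 and 15.9 CPM at 4 h against 0.265, 0.788 and 0.815 CPM at 0 h, and Nr4a2, the third family member, 3.08, 4.89 and 2.81 CPM against 1.43, 1.13 and 1.15 CPM. Both rose, with no overlap of the groups (log2 fold changes 4.77 and 1.52, edgeR adjusted p = 1.3e-12 and 2.8e-05).

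The labelled cell type was checked by markers. All 10 macrophage markers were counted at both times, with summed levels of 20769.9 to 22904 CPM at 4 h and 20187 to 21075 CPM at 0 h. Of the 13 tested of 15 stromal markers, 3 rose (Dcn, Pdgfrb and Fbn1), and their summed level was 62.7, 150.0 and 643 CPM at 4 h against 157, 205 and 272 CPM at 0 h. Labelled-KO number 4 at 4 h thus stood apart from the other 4 h libraries, and without it 1 stromal marker rose. Genes of this and the other marker lists are named outside the rule for single genes, after their values were seen. The neutrophil list summed to 349.9 to 427 CPM at 4 h and 194 to 243 CPM at 0 h, but of its 9 tested members 2 rose (S100a9 and Csf3r), 3 fell (Cxcr2, Retnlg and Mmp8) and 4 did not pass. Csf3r made up most of the sum, with 268, 251 and 286 CPM at 4 h against 120.1, 126 and 107 CPM at 0 h. The dendritic cell list summed to 41.3 to 47.8 CPM at 4 h and 56.5 to 89.1 CPM at 0 h, while 6 of its 8 tested members rose (Xcr1, Clec9a, Batf3, Ccr9, Btla and Bcl11a; list median 2.45) and 1 fell. Several that rose were scarce. Bcl11a, Ccr9, Btla and Clec9a had 23, 44, 53 and 72 counts over the 4 h group, against 10, 10, 2 and 18 over the 0 h group. The one that fell, Clec10a, made up most of the sum, with 26.4, 28.8 and 32.4 CPM against 84.4, 61.0 and 53.3 CPM. The lymphocyte list summed to 9.67 to 13.9 CPM at 4 h and 18.3 to 22.9 CPM at 0 h, and both tested members, Cd4 and Cd79b, fell. The erythroid genes Hba-a1, Hbb-bs and Hbb-bt were at 0 in all 6 libraries, as were the mast cell genes Mcpt4, Fcer1a, Ms4a2 and Tpsb2. The erythroid and megakaryocyte list summed to 220.0 to 229.7 CPM at 4 h and 194 to 222 CPM at 0 h, and Gp1ba fell while Pf4 did not pass. The mast cell and basophil list summed to 0.574 to 0.850 CPM against 0.259 to 0.296 CPM. The osteoclast list summed to 203 to 233 CPM against 176 to 254 CPM. Of its 5 tested members Acp5 rose (6.39), Atp6v0d2 fell (-1.02) and 3 did not pass. Labelled-KO number 2 at 0 h held more interferon-stimulated transcripts than the other 0 h libraries (5652 CPM over the list, against 3065 and 3793 CPM). In bulk RNA, fewer cells of a type and less RNA per cell cannot be told apart. The part of these differences in the results was not tested.

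Within 4 h the labelled-KO cells changed most of the genes they expressed. Of 12529 genes tested, 9394 differed from 0 h (75.0%), 4196 higher (33.5%) and 5198 lower (41.5%), by edgeR with a false discovery rate of 0.05 (Benjamini-Hochberg). Rises reached further than falls: 827 genes rose by at least 8-fold (6.60%) and 561 fell by as much (4.48%), at 32-fold there were 306 rises (2.44%) and 101 falls (0.806%), and at 100-fold there were 139 rises (1.11%) and 29 falls (0.231%). In 79.1% of the genes the groups did not overlap. Genes that rose by at least 8-fold took 31.5, 32 and 32.4% of the counts at 4 h, against 2.92, 2.24 and 2.45% at 0 h. Genes that fell by at least 8-fold took 0.0921, 0.0841 and 0.0919% at 4 h, against 2.67, 2.86 and 2.77% at 0 h. Those shares use the same libraries that chose the genes and are a description. Fewer genes reached 1 CPM at 4 h (10511, 10518 and 10762) than at 0 h (11031, 11007 and 11003). The median log2 fold change of all tested genes was -0.14. It was -0.05 when median-of-ratios factors were used and -0.47 with factors from the upper quartile, and the share of calls that were rises was 44.7, 48.2 and 33.4% under these 3 scalings. Each list median below is to be read beside -0.14, and each count of calls beside the 33.5% and 41.5% of all genes.

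Promoters of induced genes with a factor motif are shown, because NF-κB and interferon-driven factors are the classical regulators of this response. Sequences are RefSeq windows on GRCm38.p6, from 250 bases before to 50 bases after the gene start, printed 5′ to 3′ on the gene's strand. Capitals mark matches on either strand to the NF-κB consensus in Il6, Ifnb1 and Cxcl10, and to the interferon-stimulated response element (ISRE, searched as GAAA followed by any 2 bases and GAAA) in Cxcl10, Mmp13, Rsad2 and Ifit1. The capitalised matches do not overlap each other. The windows are chr5:30012864-30013163 (+) for Il6, chr4:88522745-88523044 (-) for Ifnb1, chr5:92348840-92349139 (-) for Cxcl10, chr9:7272264-7272563 (+) for Mmp13, chr12:26456403-26456702 (-) for Rsad2 and chr19:34640639-34640938 (+) for Ifit1.
Il6: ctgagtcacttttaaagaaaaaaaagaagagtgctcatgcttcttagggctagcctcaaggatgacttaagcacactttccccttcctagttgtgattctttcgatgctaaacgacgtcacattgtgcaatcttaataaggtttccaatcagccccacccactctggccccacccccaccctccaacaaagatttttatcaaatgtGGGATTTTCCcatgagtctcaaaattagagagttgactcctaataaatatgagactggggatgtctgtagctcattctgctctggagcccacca
Ifnb1: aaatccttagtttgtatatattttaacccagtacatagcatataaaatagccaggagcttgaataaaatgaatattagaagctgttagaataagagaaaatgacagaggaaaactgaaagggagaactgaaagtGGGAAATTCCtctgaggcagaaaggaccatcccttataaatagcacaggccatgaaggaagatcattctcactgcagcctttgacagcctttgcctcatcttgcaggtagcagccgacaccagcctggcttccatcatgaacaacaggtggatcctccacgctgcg
Cxcl10: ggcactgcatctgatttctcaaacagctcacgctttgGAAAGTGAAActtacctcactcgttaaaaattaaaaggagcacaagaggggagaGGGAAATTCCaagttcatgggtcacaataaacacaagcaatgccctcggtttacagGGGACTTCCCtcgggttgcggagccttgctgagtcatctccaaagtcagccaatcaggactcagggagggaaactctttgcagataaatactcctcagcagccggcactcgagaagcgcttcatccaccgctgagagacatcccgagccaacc
Mmp13: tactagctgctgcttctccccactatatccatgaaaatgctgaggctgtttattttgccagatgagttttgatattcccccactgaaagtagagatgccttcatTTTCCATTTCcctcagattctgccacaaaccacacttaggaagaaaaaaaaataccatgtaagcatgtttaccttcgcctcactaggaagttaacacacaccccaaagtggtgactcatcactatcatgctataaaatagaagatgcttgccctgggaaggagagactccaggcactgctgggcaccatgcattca
Rsad2: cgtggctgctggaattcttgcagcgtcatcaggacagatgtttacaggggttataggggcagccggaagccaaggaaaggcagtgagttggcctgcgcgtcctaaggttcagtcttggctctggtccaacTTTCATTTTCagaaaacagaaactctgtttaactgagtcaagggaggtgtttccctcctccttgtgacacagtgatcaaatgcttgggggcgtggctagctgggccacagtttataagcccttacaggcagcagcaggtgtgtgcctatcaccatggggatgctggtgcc
Ifit1: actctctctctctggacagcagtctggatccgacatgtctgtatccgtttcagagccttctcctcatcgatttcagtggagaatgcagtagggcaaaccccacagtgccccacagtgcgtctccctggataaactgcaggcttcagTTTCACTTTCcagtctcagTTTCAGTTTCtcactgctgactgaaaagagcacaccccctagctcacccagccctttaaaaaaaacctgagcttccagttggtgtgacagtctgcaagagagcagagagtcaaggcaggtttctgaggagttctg
The NF-κB matches begin at -44 in Il6, at -116 in Ifnb1 and at -159 and -103 in Cxcl10, counted from the gene start. The ISRE matches begin at -213 in Cxcl10, -146 in Mmp13, -120 in Rsad2, and -104 and -85 in Ifit1. Of 55 risen genes among the fixed genes and largest rises, 43 matched a window, of which 6 held the NF-κB motif and 4 the ISRE. Both strands were searched, and the NF-κB motif is given by name. Over all 32851 windows of the table the NF-κB motif was in 4.51% and the ISRE in 3.44%. They were in 10.3% (NF-κB) and 10.2% (ISRE) of the 793 windows of genes higher by at least 8-fold, in 4.63% and 1.37% of the 583 windows of genes lower by as much, and in 5.34% and 3.44% of the 12636 windows of tested genes. The AP-1 motif TGANTCA was in 12.0% of the windows of genes 8-fold higher and 6.17% of those 8-fold lower, against 5.34% of tested windows and 7.81% of all windows. The TATA motif TATAAA was in 12.5% and 7.89%, against 7.27% of tested windows and 13.6% of all windows. A match is a string of letters in this window and does not show that a factor binds there.

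Proinflammatory cytokine genes rose most of all groups by median. Of 18 tested of 20 listed, 17 rose and 1 fell, with a median log2 fold change of 7.52 (the same with Il12a at its bound), beside -0.14 over all genes. Il6, a proinflammatory cytokine, had 368, 562 and 411 CPM at 4 h, against 0.318, 0.0493 and 0.0370 CPM at 0 h (log2 fold change 11.77, SE 0.43, edgeR adjusted p = 3.8e-16). Tnf had 2982, 2961 and 2869 CPM against 4.02, 6.21 and 3.74 CPM (9.31, SE 0.27). Il1b had 1823, 2531 and 1823 CPM against 13, 6.70 and 7.26 CPM (7.85, SE 0.29). The groups lay far apart in all 3. Il12b, the p40 subunit shared by interleukins 12 and 23, had 325, 456 and 393 CPM against 0.106, 0 and 0.259 CPM. Il12a, the p35 subunit, had 15.8, 21.1 and 15.2 CPM and no count in any labelled-KO library at 0 h, so that it was at least 374-fold higher when 3 counts stand for none in that group. Csf3, a granulocyte growth factor, was scarce, with 0.212, 0.109 and 0.510 CPM at 4 h. Its 11 counts at 4 h and 2 at 0 h gave a ratio of 10.6 (95% counting interval 2.32 to 98.5), and its call ended without labelled-KO number 4 at 4 h (adjusted p = 0.12), the library with the most stromal RNA. Osm, an interleukin 6 family cytokine, was the exception, at 3.82, 3.04 and 3.32 CPM against 9.80, 9.90 and 7.82 CPM (-1.43, edgeR adjusted p = 5.7e-07).

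**Figure D1:**
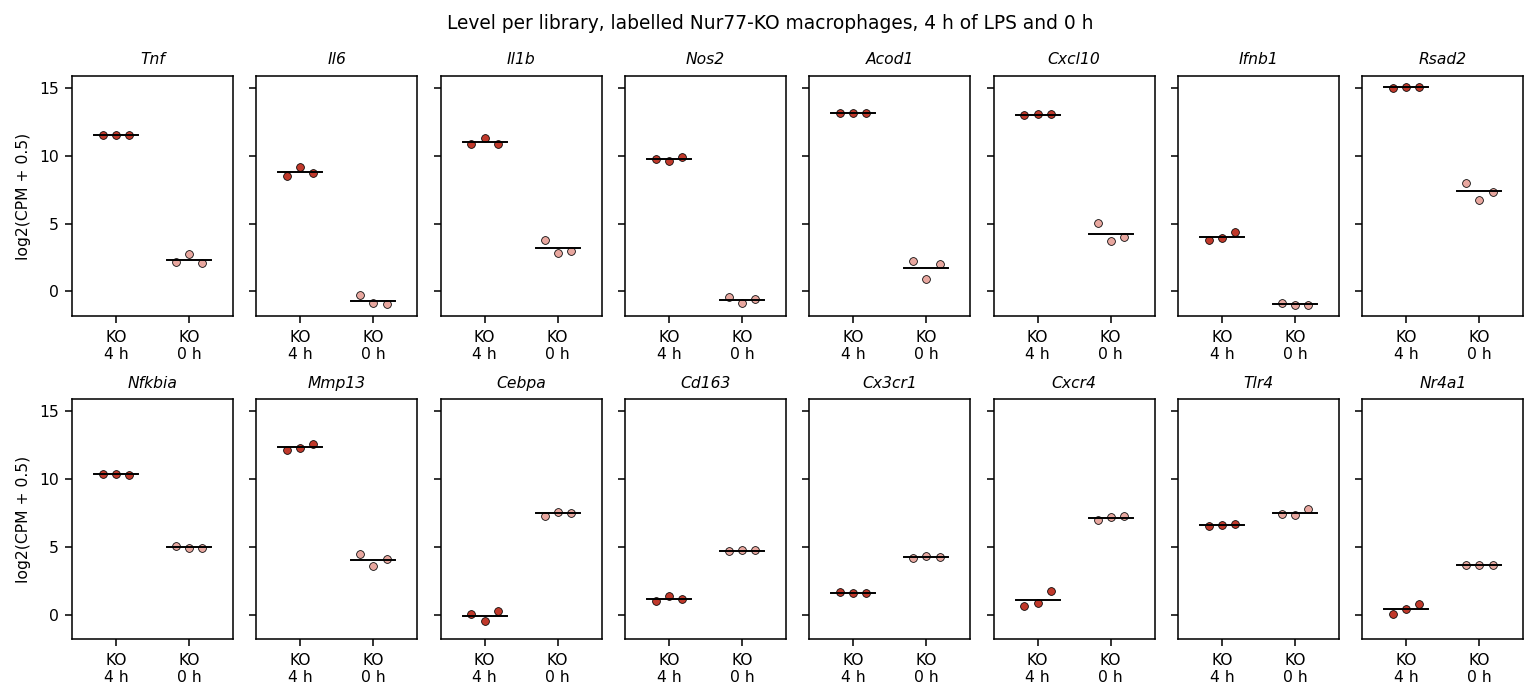
Level of 16 genes in each labelled-KO library, as log2(CPM + 0.5), at 4 h of LPS (left) and 0 h (right); bars are means of 3 libraries. Tnf, Il6, Il1b, Nos2, Acod1, Cxcl10, Ifnb1, Rsad2, Nfkbia and Mmp13 are high at 4 h, while Cebpa, Cd163, Cx3cr1, Cxcr4, Tlr4 and Nr4a1 are low, with no overlap in any of the 16. The 16 were picked for display, and the groups did not overlap in 79.1% of all tested genes.

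Chemokine genes rose with them. CC chemokine genes rose in 10 of 11 tested (median 5.88), and none fell except Ccl6 with upper-quartile factors (-0.33). Ccl5, a lymphocyte attractant, had 2768, 2726 and 2600.5 CPM at 4 h against 14.8, 1.77 and 4.67 CPM at 0 h. Ccl3 (6.52), Ccl4 (7.67) and Ccl7 (7.01) rose by similar log2 amounts, and Ccl22, a ligand of Ccr4, rose by 10.11. Ccl6 had 410.1, 462 and 361 CPM against 419, 379 and 433 CPM. CXC chemokine genes rose in 7 of 11 tested, with a median of 6.09. Cxcl10, a ligand of Cxcr3, had 7965, 8325 and 8489 CPM against 32, 12.6 and 15.7 CPM (8.69, SE 0.36). Cxcl9 and Cxcl11, ligands of the same receptor, rose by 10.69 and 10.52. Cxcl1 and Cxcl2, neutrophil attractants, rose by 7.06 and 6.09, and Cxcl3 went to 239 counts over the 4 h group, against 1 over the 0 h group, a ratio of 461 (95% counting interval 82.0 to 18287). Cxcl12, a stromal chemokine, had 0.850, 1.41 and 13.8 CPM against 4.71, 7.05 and 6.78 CPM and did not pass (edgeR adjusted p = 0.92), and its high 4 h value lay in number 4, the library with the most stromal RNA.

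Receptors for chemoattractants moved in both directions. Of 14 tested, 7 rose and 5 fell, with a median of 0.29. Fpr2 and Fpr1, formyl peptide receptors, rose by 6.96 and 4.88, and Ccrl2, a chemerin-binding receptor, by 5.91. Cxcr4, the receptor of Cxcl12, fell to 1.06, 1.30 and 2.81 CPM at 4 h against 126, 147 and 151 CPM at 0 h (-6.22, SE 0.24, edgeR adjusted p = 8.9e-16). Cx3cr1, the fractalkine receptor, fell to 2.66, 2.50 and 2.49 CPM against 17.4, 19.2 and 18.9 CPM. C5ar2, a receptor of complement C5a, fell by 2.33.

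Within the receptor complex the members moved apart. Tlr4, the signalling chain, was lower and had 90.9, 96.5 and 102 CPM at 4 h against 167, 160.3 and 220.1 CPM at 0 h (-0.92, SE 0.16, edgeR adjusted p = 2.3e-05). Its co-receptor Cd14 rose, with 1368, 1267 and 1384 CPM against 207, 178 and 181 CPM. In the list of the Tlr4 complex and adaptors 13 of 24 rose and 6 fell, with a median of 0.43. The kinases Irak2 (3.43) and Ikbke (2.98) and the adaptor Myd88 (2.89) rose, while the kinase Irak4 (-1.63) and the Tak1 partner Tab1 (-2.62) fell. Of 22 other pattern recognition receptors 17 rose and 3 fell (median 2.53). Clec4e, the Mincle receptor, rose by 7.06, the RNA sensor Ifih1 by 5.73 and the nucleic acid sensor Zbp1 by 4.27, and Tlr13, a receptor of bacterial ribosomal RNA in mice, had -2.64.

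All 5 NF-κB subunit genes rose, by 2.15 (Rela) to 4.52 (Nfkb2). Nfkb1 had 1122, 1140.2 and 1099 CPM at 4 h against 119, 118 and 116 CPM at 0 h. Inhibitors and feedback genes rose in 13 and fell in 3 of 16 (median 2.92). Nfkbia, the inhibitor IκBα, had 1301, 1332 and 1281 CPM against 32.8, 29.8 and 30.2 CPM, and Tnfaip3, the ubiquitin-editing enzyme A20, 3209.7, 2993 and 3459.8 CPM against 28.0, 29.9 and 30.0 CPM (6.78, SE 0.12, edgeR adjusted p = 1.1e-20). Tnip3, an A20-binding protein, and Nfkbiz, the nuclear IκBζ, rose by 7.09 and 6.39. Otulin, a linear-ubiquitin peptidase, fell by 0.59 and Trib1, a pseudokinase, by 1.02.

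Immediate early transcription factors split at this time, with 12 of 23 higher and 6 lower (median 0.58). Batf (4.67) and Maff (4.49), bZIP factors, rose beside Nr4a3. Fos, an AP-1 subunit, had 10.4, 12.2 and 11.3 CPM at 4 h against 35.4, 42.6 and 38.3 CPM at 0 h (-1.78, edgeR adjusted p = 8.3e-10), and the zinc finger factor Klf2 was at -1.72. MAP kinase phosphatases, which switch off the kinases, rose in 6 and fell in 2 of 10 (median 1.87). Dusp2 had 418, 384 and 408 CPM against 0.794, 1.18 and 0.963 CPM, and Dusp1 rose by 3.82, whereas Dusp6 (-2.01) and Dusp7 (-2.13) fell. Anti-inflammatory cytokine and receptor genes rose in 8 and fell in 2 of 15 (median 1.37). Fallers numbered 5 with upper-quartile factors and 4 without labelled-KO number 4 at 4 h. Socs3 (8.5) and Socs1 (7.50), inhibitors of cytokine receptor signalling, and Il1rn (6.10), the interleukin 1 receptor antagonist, rose. Il10 had 10.9, 12.8 and 26.6 CPM against 4.24, 1.87 and 1.78 CPM (2.75), and Tgfbr1 (-0.82) and Tgfbr2 (-0.50), receptors of transforming growth factor beta, fell.

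Effector enzymes rose in 14 and fell in 1 of 17 tested (median 5.37). Nos2, the inducible nitric oxide synthase, had 854, 774 and 971 CPM at 4 h against 0.265, 0.0493 and 0.185 CPM at 0 h (12.29, SE 0.56, edgeR adjusted p = 1.6e-14). Acod1, which makes itaconate from a citric acid cycle intermediate, had 8965, 8779.8 and 8799.9 CPM against 4.18, 1.43 and 3.56 CPM (11.49). Ptgs2, the inducible cyclooxygenase, had 1376, 2118 and 1659 CPM against 1.11, 0.493 and 1.37 CPM (10.71). Hmox1, haem oxygenase 1, fell to 157, 129 and 151 CPM against 443, 482 and 499 CPM.

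All 42 tested interferon-stimulated genes rose (median 4.21), and together they reached 130009.8, 128167 and 137816 CPM at 4 h, against 5652, 3065 and 3793 CPM at 0 h. All 42 also rose without labelled-KO number 2 at both times, the library with the highest level at 0 h. Rsad2, the antiviral enzyme viperin, had 32139, 33256 and 33841 CPM against 257, 105 and 162 CPM (7.56, SE 0.31, edgeR adjusted p = 3.5e-15). Gbp5 (7.88), a guanylate-binding protein, and Cmpk2 (7.67), a nucleotide kinase beside Rsad2 in the genome, rose as much. Ifit1 had 5089, 4741 and 5495 CPM against 77.8, 28.3 and 43.9 CPM, with the highest 0 h value in number 2. Ifnb1, interferon beta, had 13.4, 14.9 and 19.9 CPM against 1 count over the 0 h group, a ratio of 1109 (95% counting interval 198 to 43889.5). In the list of interferon production and receptors 15 of 17 rose and 2 fell (median 1.81). Irf7, which amplifies interferon, had 1243, 1207 and 1416 CPM against 94.6, 30.7 and 37.9 CPM, with number 2 the high one at 0 h again. Usp18, a brake on interferon signalling, rose by 5.43 and Irf1 by 4.80, while Irf3 (-0.47) and the interferon gamma receptor chain Ifngr1 (-1.19) fell.

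Antigen presentation and costimulation genes rose in 18 and fell in 0 of 20 (median 2.42). Cd40, a receptor for T cell help, had 2720.5, 2603 and 2810.4 CPM at 4 h against 5.56, 2.86 and 3.22 CPM at 0 h (9.46), and Cd274, the checkpoint ligand PD-L1, 3614, 3452 and 3818 CPM against 71.1, 54.1 and 66.4 CPM (5.83). Icosl rose by 4.94 and Cd80 by 2.56. Cell death and survival genes rose in 24 and fell in 2 of 30 (median 1.99). Bcl2a1d and Bcl2a1a, survival genes of a family of near-identical copies and so uncertain, were at 7.17 and 7.28, Ripk2, the kinase of Nod receptors, at 5.42 and Pmaip1, a death-promoting gene, at -1.54.

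**Figure D2:**
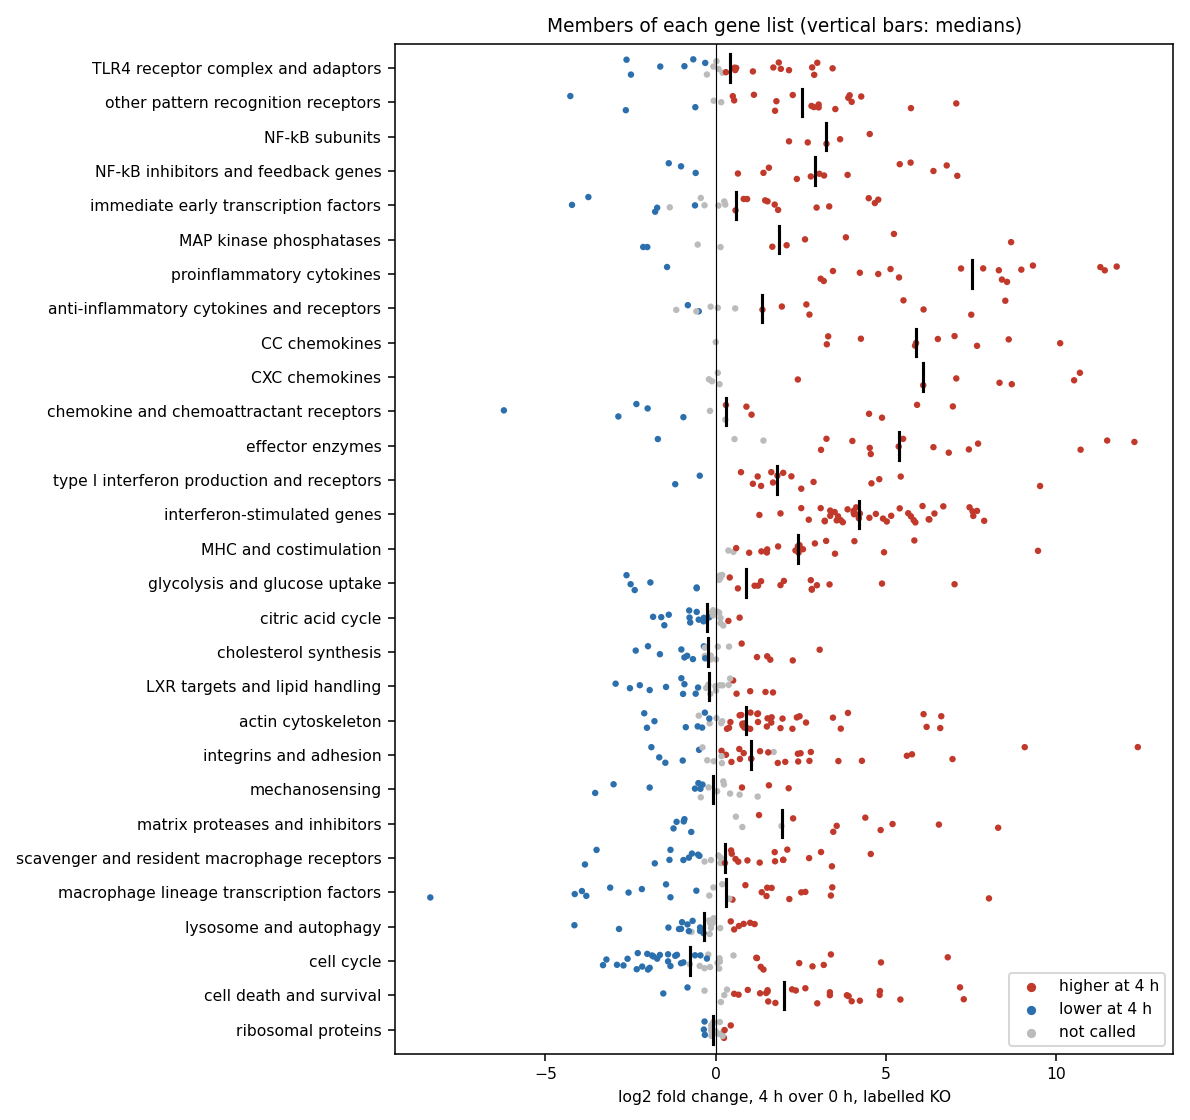
Log2 fold change at 4 h over 0 h in labelled-KO cells for each tested member of 29 gene lists, coloured by the edgeR call; vertical bars are list medians. Cytokine, chemokine, effector and interferon-stimulated lists lie to the right, cell cycle genes mostly to the left, and ribosomal protein genes around 0.

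Metabolic genes moved in both directions. Glycolysis and glucose uptake genes rose in 14 and fell in 6 of 24 (median 0.90). The glucose transporter genes Slc2a6 (7.01) and Slc2a1 (2.82) and the lactate transporter Slc16a1 (4.88) rose, and the phosphofructokinase Pfkp had 280.1, 278 and 286 CPM at 4 h against 25.7, 28.4 and 29.1 CPM at 0 h. Pfkfb4 (-2.62), a regulator of phosphofructokinase, and the growth factor Vegfa (-2.38) fell. Citric acid cycle genes rose in 2 and fell in 12 of 22 (median -0.27), with 1 to 5 rises under the other scalings and filters run. Idh1, the cytosolic isocitrate dehydrogenase, fell to 103, 87.5 and 102 CPM against 323, 356 and 368 CPM (-1.84), and Fh1, fumarate hydratase, to 24.5, 18.4 and 20.1 CPM against 74.1, 47.9 and 56.8 CPM. Cs, citrate synthase, rose by 0.70. Cholesterol synthesis genes rose in 6 and fell in 9 of 22 (median -0.23). Idi1, an isomerase of the isoprenoid steps, rose by 1.6, and Lss (-2.35) and Dhcr7 (-1.99), late enzymes of the pathway, fell. LXR target and lipid handling genes rose in 5 and fell in 10 of 24 (median -0.19). Abca1, the cholesterol exporter, fell to 396, 325 and 311 CPM against 1090.3, 1274 and 1585 CPM, while Nr1h3, the receptor LXRα, rose by 1.46. Lysosome and autophagy genes rose in 6 and fell in 13 of 27 (median -0.36), among them Tfeb (-4.15), a regulator of lysosome genes, and Ulk1 (-2.84), an autophagy kinase, lower and Lamp2 (1.14) higher. Ribosomal protein genes rose in 3 and fell in 3 of 24 (median -0.07), against 0 and 17 with upper-quartile factors and 7 and 3 with median-of-ratios factors for rises and falls.

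Actin cytoskeleton genes rose in 32 and fell in 8 of 45 tested (median 0.89). Actb, cytoplasmic actin, had 21268, 21416 and 21053 CPM at 4 h against 4175, 4008 and 4091 CPM at 0 h (2.38, SE 0.09, edgeR adjusted p = 7.5e-16). Marcksl1 (6.59), a membrane-actin linker, and Cnn3 (6.62), a calponin, rose, and Coro1c (-2.10), Coro1a (-2.02) and the myosin Myo1f (-1.80) fell. Of 35 integrin and adhesion genes 24 were higher and 5 lower (median 1.04), against 8 falls with upper-quartile factors. Icam1 had 3634, 3459 and 3552 CPM against 79.8, 57.3 and 58.7 CPM, the fibronectin receptor chain Itga5 rose by 4.29 and the kinase Src by 6.95, whereas Itga6 (-1.89) and Itgb3 (-1.48) fell. Sele, a selectin best known in endothelium, had 102, 121 and 131 CPM against 1 count over the 0 h group, a ratio of 7966 (95% counting interval 1429 to 314700.1). The 8 endothelial markers together had 46.9 to 52.4 CPM at 4 h, against 20.5 to 25.1 CPM at 0 h; of the 4 tested Kdr rose (3.42) and Vwf fell (-1.37), and Cldn5 was at 0 in all 6 libraries. Their part in this result was not tested. Mechanosensing genes rose in 3 and fell in 7 of 18 (median -0.09). The mechanosensitive channel Piezo1 had 438, 385 and 359 CPM against 83.8, 94.8 and 89.2 CPM (2.14), and the channel Trpv4 fell to 2.76, 1.09 and 0.956 CPM against 12.9, 12.1 and 11.8 CPM. Matrix proteases and their inhibitors rose in 9 and fell in 5 of 17 (median 1.93). Mmp13, a collagenase, had 4522, 4877 and 6172 CPM against 21.3, 11.8 and 16.8 CPM (8.29, SE 0.28), and Mmp14, a membrane-bound protease, rose by 4.39. Thbs1, a matrix glycoprotein, fell by 1.24.

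Genes of macrophage identity changed unevenly. Lineage transcription factors rose in 12 and fell in 10 of 26 (median 0.30). Cebpa, a myeloid factor, was at 0.531, 0.217 and 0.701 CPM at 4 h against 158, 187 and 183 CPM at 0 h (-8.38, SE 0.29, edgeR adjusted p = 1.5e-16). Bhlhe41, a repressor of resident macrophages, was at -4.14, whereas Cebpd (3.38), Tfec (3.42), Gfi1 (8.02) and Spi1 (2.16), the factor PU.1, rose. Scavenger and resident receptors rose in 16 and fell in 10 of 31 (median 0.27). Cd163, the haemoglobin scavenger, fell to 1.49, 2.17 and 1.79 CPM against 25.1, 26.8 and 26.3 CPM, Stab1 by 1.79 and Gpr34 by 3.50. Msr1, a scavenger receptor, had 1229.9, 1378 and 1318 CPM against 154, 140.5 and 168 CPM, and the collagen-domain receptor Marco 34.0, 69.9 and 19.3 CPM against 3.02, 1.48 and 0.889 CPM. Csf1r, the growth factor receptor on which macrophages depend, fell to 1986, 1695 and 1914 CPM against 3174, 3014 and 2895 CPM.

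Cell cycle genes rose in 10 and fell in 25 of 45 (median -0.76). Mcm2, of the replicative helicase, fell to 1.49, 1.30 and 1.72 CPM at 4 h against 9.90, 11 and 9.26 CPM at 0 h, and Kif23, a cytokinesis motor, to 0.212, 0.435 and 1.08 CPM against 5.03, 7.14 and 6.00 CPM. Ccnd2, a G1 cyclin, had 616, 764 and 701 CPM against 4.82, 4.93 and 8.52 CPM (6.81), and Cdkn1a, the cell cycle inhibitor p21, 3553, 3755 and 3289 CPM against 138, 106 and 125 CPM (4.85). Mki67, a proliferation marker, was higher and not lower, at 215, 193 and 192 CPM against 25.9, 31.1 and 26.7 CPM (2.84).

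The largest fitted rise among the named genes was that of Slamf1, a receptor that takes part in bacterial sensing, with 310.2, 214 and 365 CPM at 4 h and 2 counts over the 0 h group. Its ratio was 10232 (95% counting interval 2832 to 84503). Lipg, an endothelial-type lipase, had a ratio of 7732 (1387 to 305480.0) over 1 count, and Mir155hg, the host gene of the microRNA miR-155, 4946 (1369 to 40855) over 2 counts. Tmem200b had no count at 0 h and 24, 20.3 and 22.3 CPM at 4 h, at least 491-fold higher. Among the largest falls Frat1, a Wnt pathway protein, had no count at 4 h against 10.2, 11.5 and 10.2 CPM at 0 h, at least 121-fold lower. Cnr2, the cannabinoid receptor of immune cells, had 1 count at 4 h against 24.1, 24.9 and 27.3 CPM at 0 h, and its fold was 879.6 (158 to 34764). Bmf, a death-promoting BH3 protein, was lower by 422-fold (144 to 2047) over 3 counts at 4 h. Sesn1, a stress-induced inhibitor of mTORC1, had 5.42, 3.69 and 2.36 CPM against 470.1, 469 and 485 CPM (-7.02), and Lpin1, a phosphatidate phosphatase, 0.425, 0.217 and 0.574 CPM against 52.4, 55.8 and 65.3 CPM (-7.03). Cd300lb, an activating receptor, had 1.70, 1.52 and 1.47 CPM against 227, 233 and 235 CPM. Intervals and floors cover counting error only.

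The response was then set against that of WT cells, with a test of the difference between the responses (the interaction of label and time). In WT cells 9786 of 12529 genes differed between 4 h and 0 h (78.1%). The response of the labelled-KO cells differed from that of WT in 100 genes (0.798%), 75 with the labelled-KO log2 fold change above (0.599%) and 25 below (0.200%), and unadjusted p was under 0.05 in 1272 (10.2%). DESeq2 called 197. The count was 62 without labelled-KO number 4 at 4 h and also 62 without labelled-KO number 2 at 0 h, and 48 without number 4 at both times. Without WT number 1 at 4 h, which stood apart from the other WT libraries, it was 128. Of the genes, 93.0% had log2 fold changes within 2-fold of each other, and the middle 95% of differences ran from -0.93 to 1.42. None of the 42 interferon-stimulated genes, 18 proinflammatory cytokines, 5 NF-κB subunits or 24 genes of the Tlr4 complex was among the 100. At a share of 0.798% lists of this size hold few or none, so this says little about them. Other lists held some, among them 2 of 16 NF-κB inhibitor and feedback genes and 2 of 24 glycolysis and glucose uptake genes. Tnf came close, with a difference of 1.14 (edgeR adjusted p = 0.057), and passed with DESeq2 (0.0022), without labelled-KO number 3 at 0 h (0.026) and in 7 other alternatives.

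**Figure D3:**
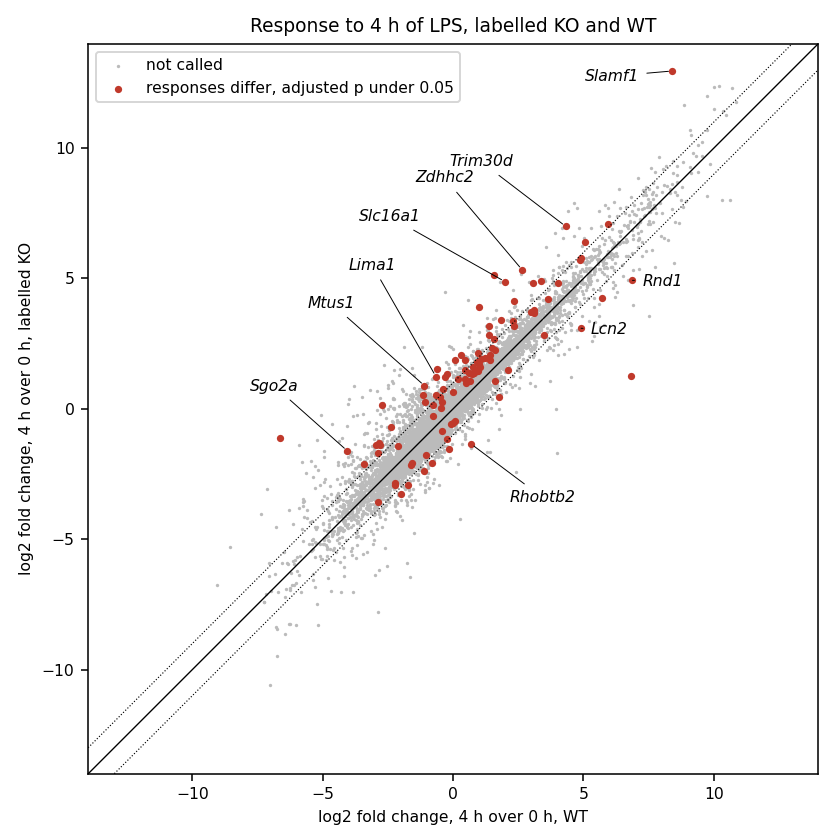
Log2 fold change at 4 h over 0 h of each of 12529 genes, labelled-KO cells on the vertical axis and WT cells on the horizontal; the solid line is equality and dotted lines are 2-fold. The 100 genes whose responses differed are red, 75 above and 25 below the line, and 93.0% of all genes lie between the dotted lines.

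Among the genes that differed, 3 named by the rule moved in opposite directions. Lima1, an actin-bundling protein (chromosome 15, 99778468 to 99875477), rose in labelled-KO cells, with 526, 458 and 555 CPM at 4 h against 207, 209.8 and 233 CPM at 0 h, and fell in WT cells, with 69.7, 80.4, 74.9 and 69.4 CPM against 123, 115, 113 and 113 CPM. The difference of responses was 1.91 (SE 0.11, edgeR adjusted p = 1e-09). Mtus1, a microtubule-associated protein (chromosome 8, 40990912 to 41133983), was at 0.89 in labelled-KO cells and -1.10 in WT. Rhobtb2, an atypical GTPase (chromosome 14, 69784990 to 69824847), fell to 3.29, 2.83 and 3.06 CPM against 7.84, 8.08 and 7.33 CPM in labelled-KO cells, while WT cells had 9.53, 10.3, 7.31 and 8.64 CPM at 4 h against 6.02, 4.78, 5.87 and 5.67 CPM at 0 h. In all, 10 genes had calls of opposite direction.

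Larger rises in labelled-KO cells included metabolic, signalling and cell cycle genes. Slc16a1, the monocarboxylate transporter MCT1 (chromosome 3, 104638664 to 104658462), had 284, 268 and 309 CPM at 4 h against 10.0, 9.31 and 9.93 CPM at 0 h in labelled-KO cells. WT cells had 61.9, 36.3, 42.3 and 43.4 CPM against 10.7, 12.9, 11.4 and 11.7 CPM, and the responses differed by 2.89 (SE 0.24, edgeR adjusted p = 4e-07). Slamf1 had 84.9 to 95.1 CPM at 4 h in WT cells against 0.187 to 0.438 CPM, and its fitted difference of 4.55, which rests on those 2 counts and so on the prior count, lost the call in 6 alternatives, among them without labelled-KO number 2 (adjusted p = 0.059) or 4 (0.085) at 0 h. Dusp5, a MAP kinase phosphatase, was at 2.08 in labelled-KO cells and at 0.31 in WT, where it did not pass (edgeR adjusted p = 0.068). Trim30d (7.00 against 4.32) and Trim5 (1.86 against 0.06), antiviral genes of a cluster of near-identical copies, are uncertain, and Trim5 lost the call without labelled-KO number 4 at 4 h (adjusted p = 0.060) or at 0 h (0.073). Zdhhc2, a palmitoyltransferase, was at 5.33 against 2.65, Prag1, a pseudokinase, at 4.12 against 2.32, and Tnip3 at 7.09 against 5.93.

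Of the cell cycle list 7 of 45 differed from WT, beside 0.798% of all genes tested, and the list median was -0.76 in labelled-KO cells and -1.39 in WT. Mki67 had 215, 193 and 192 CPM at 4 h in labelled-KO cells and 209.9, 176, 189.7 and 170.1 CPM in WT, ranges that overlap, whereas at 0 h it had 25.9, 31.1 and 26.7 CPM in labelled-KO cells and 64.8, 99, 63.4 and 61.9 CPM in WT. Its responses differed by 1.47 (edgeR adjusted p = 0.00057). Of the same list, Ccne1, cyclin E1, differed by 1.81 and Tpx2, a spindle protein, by 1.08. E2f8, a repressor of the cell cycle that is not in the list, differed by 1.76. E2f8 had 66.2, 80.3 and 70.3 CPM at 4 h in labelled-KO cells and 47.1, 56.6, 51.6 and 55.8 CPM in WT. At 0 h it was lower in labelled-KO cells, with 2.70, 2.71 and 2.22 CPM against 7.21, 6.26, 5.60 and 5.72 CPM in WT. Ccne1 was also lower in them at 0 h, with 1.11, 1.38 and 0.704 CPM against 1.62, 2.79, 2.58 and 2.25 CPM in WT. At 4 h Ccne1 had 8.18, 10.9 and 9.37 CPM against 7.25, 6.19, 5.12 and 5.02 CPM in WT. The call of Tpx2 was lost without labelled-KO number 4 at 4 h (adjusted p = 0.091), number 2 at 0 h (0.077) or number 4 at 0 h (0.096). Ccnd1, cyclin D1, differed by 0.51, a call that most alternatives ended (edgeR adjusted p = 0.042). Sgo2a, a protector of chromosome cohesion and also not in the list, differed by 2.45, and by 1.47 without labelled-KO number 4 at 4 h (adjusted p = 0.54).

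Smaller rises or larger falls made up the other side. Lcn2, an iron-binding protein of neutrophils and activated macrophages, had 63.4, 45 and 60.2 CPM at 4 h against 4.98, 8.38 and 6.48 CPM at 0 h in labelled-KO cells, and 48.9, 37.7, 39.8 and 46.7 CPM against 0.798, 0.977, 2.06 and 2.30 CPM in WT. The responses differed by -1.82 (edgeR adjusted p = 0.015), and the labels overlapped at 4 h and not at 0 h. The call was lost without labelled-KO number 3 at 0 h (adjusted p = 0.063). Of the neutrophil list, Csf3r and S100a9 rose in labelled-KO cells while Cxcr2, Retnlg and Mmp8 fell, and the part of neutrophil RNA in this result was not tested. Fcgr2b, the inhibitory Fc receptor, had 578, 842 and 608 CPM against 497, 494 and 494 CPM, and in WT 1867, 1409, 1384 and 1331 CPM against 516, 438, 407 and 391 CPM, a difference of -1.32. The labelled-KO rise of Fcgr2b itself (0.45) lost the call without number 3 at 4 h. Ccl8, a monocyte attractant, rose by 4.26 against 5.73. Labelled-KO cells had 113, 107 and 123 CPM at 4 h against 8.63, 4.88 and 4.56 CPM at 0 h, with the highest 0 h value in number 2. WT cells had 101, 77.3, 94.8 and 105 CPM against 1.94, 1.23, 2.19 and 1.78 CPM. The labelled-KO level of Ccl8 was thus the higher at both times, without overlap. Its call was lost without labelled-KO number 2 at 0 h (edgeR adjusted p = 0.096) or without WT number 2 at 0 h (0.055). Rnd1, a small GTPase, rose by 4.93 against 6.88, and Ppfibp2, a liprin, fell by 1.55 in labelled-KO cells with -0.17 in WT. Fbxw7, a ubiquitin ligase subunit, fell by 1.17 in labelled-KO cells and by 0.22 in WT.

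**Figure D4:**
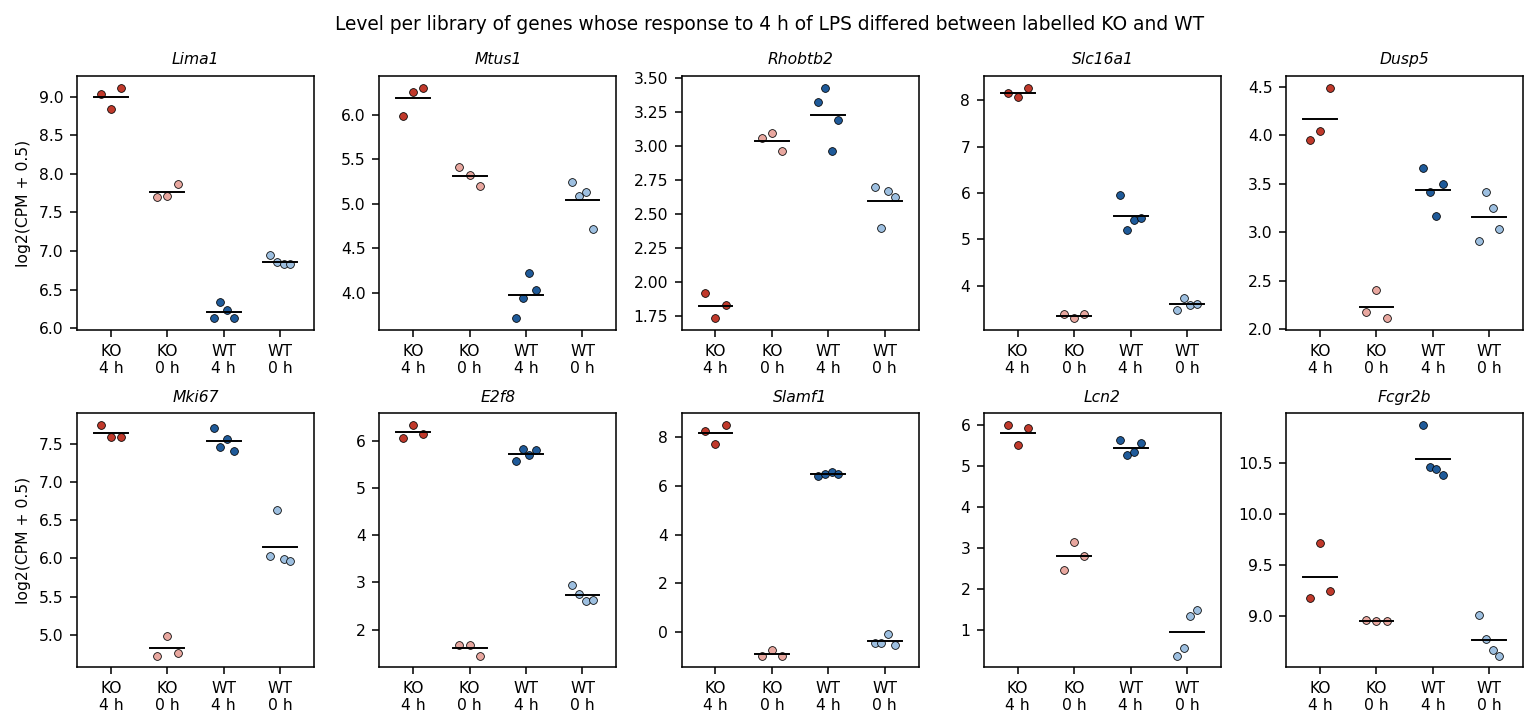
Level of 10 genes in each library, as log2(CPM + 0.5), in labelled-KO cells at 4 h and 0 h and WT cells at 4 h and 0 h; bars are means of 3 or 4 libraries and each panel has its own axis. Lima1, Mtus1 and Rhobtb2 move in opposite directions, while Mki67 and Lcn2 overlap between labels at 4 h and not at 0 h.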

How the data were processed

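The values of the mRNA libraries are the authors' deposited estimated counts for each RefSeq transcript; they change by 0.5 and carry no depth scaling. The submitters' processing notes name CASAVA 1.8.2, HISAT2 2.1.0 and mm10. How reads were counted, with or without strand, and how shared reads were split is not stated, so near-identical copies are uncertain. The design had assumed whole counts, so values were rounded (0.5 upward). Of 42361 transcript IDs, 42198 matched a RefSeq table of mm10 and 70 a GENCODE annotation, and 93 without a name (0.232 to 2.229% of counts per library) were left out. The transcript of highest mean count stood for each of 25067 genes.

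Groups came from sample titles. A quasi-likelihood model (edgeR 4.0.16, R 4.3.3) with 6 group means was fitted to all 21 libraries, with TMM factors and genes kept by filterByExpr (12529 genes), with Benjamini-Hochberg adjustment over all genes at 0.05. The fit of the labelled-KO contrast was run on simulated counts in which few genes changed, and by small folds. That setting lacks the broad change seen here, so it checks neither the scaling nor these calls. CPM use TMM library sizes. Each SE was taken as the absolute log2 fold change over the root of its F statistic. For a bound, 3 counts over the group replaced 0. Kept totals were 12301504 to 29650081 per library over the series. No libraries of a group agreed within sampling noise. The members and gene lists were chosen with earlier results of these data known. The rule named 59 fixed genes, up to 12 largest rises and falls (at least 5 CPM, groups apart), up to 3 rises and falls of each list, every member of lists of 12 or fewer tested genes, and up to 12 genes of each sign whose response differed. A few further genes at the extremes of marker lists were named after their values were seen.

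Alternatives were DESeq2 1.42.0, limma-voom (limma 3.58.1), median-of-ratios and upper-quartile factors, other filters, the compared groups alone, summed transcripts, the replicate number as a block, an adjusted p of 0.01 and leaving out each library. Fits without labelled-KO number 2 or 4 at both times, and a block within each label, were added after seeing the data. Deviations of same-numbered labelled-KO libraries from their group means correlated at 0.15, 0.05 and 0.22, not all over 0.1, so they were not treated as paired; those of WT libraries correlated at 0.26 to 0.30. Python 3.11.15 and matplotlib 3.10.9 made the figures.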

Additional observations from a re-analysis of the deposited data

Results flagged for a closer look

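The responses of labelled-KO and WT cells to 4 h of LPS differed, by edgeR's interaction test with Benjamini-Hochberg adjustment under 0.05, in 28 named genes, of which 16 lost the call in at least 1 alternative and 12 kept it in all that were run. The log2 difference was positive, with the labelled-KO fold change above that of WT, for Slamf1 (4.55), Slc16a1 (2.89), Trim30d (2.68), Zdhhc2 (2.67), Sgo2a (2.45), Mtus1 (1.99), Lima1 (1.91), Ccne1 (1.81), Prag1 (1.8), Trim5 (1.8), Dusp5 (1.77), E2f8 (1.76), Mki67 (1.47), Tnip3 (1.16), Tpx2 (1.08) and Ccnd1 (0.51). It was negative for Rhobtb2 (-2.02), Rnd1 (-1.95), Lcn2 (-1.82), Ccl8 (-1.46), Ppfibp2 (-1.38), Fcgr2b (-1.32), Irf2bpl (-1.28), Sumf2 (-1.26), Galt (-1.25), Prmt7 (-1.20), Fbxw7 (-0.95) and Mindy1 (-0.72).

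In 3 groups of 4 WT libraries 1 library lay far from the others by its gap over the range, which chance gives in about 1 of 20 groups. More groups than these were looked at, so chance alone could give some such libraries. Fcgr2b had 1867 CPM in WT number 1 at 4 h, against 1331 to 1409 CPM in the others. Rnd1 had 0.109 CPM and Slamf1 0.438 CPM in 1 WT library each at 0 h. WT number 1 also stood apart over the genes as a whole. The chi-square per degree of freedom between the counts of its 4 h pairs was 43.7, 48.0 and 69.2, against 6.99, 10.1 and 13.2 for the other WT pairs. At 0 h it was 33.7, 30.5 and 28.8, against 8.12, 13.9 and 9.19. Without WT number 1 at 4 h the responses differed in 128 genes, and without it at 0 h in 104, against 100 with all libraries. No fit left it out at both times, and why it stood apart was not tested.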

How the results depend on the processing

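The count of 9394 genes changed in labelled-KO cells ran from 8472 (adjusted p under 0.01) to 9876 (upper-quartile factors), and from 9027 to 9136 without 1 library; with the replicate number as a block it was 9077. The 100 genes whose responses differed became 197 with DESeq2 and 45 at an adjusted p under 0.01, 104 with the replicate block and 108 with the block within each label, 62 to 128 without 1 library, and 59 and 48 without labelled-KO number 2 and number 4 at both times. Each labelled-KO library correlated best with the library of its own number, a hint from the data and not from the design. With upper-quartile factors Ccl6 (-0.33), Cd68 (-0.25), Itgam (-0.03), Rpl19 (-0.09) and Rps23 (-0.07) turned to the other sign. Of 272 named genes, 34 had a labelled-KO fold change whose call, sign or, without a call, size moved in some alternative, and the 5 turned signs all came with upper-quartile factors; Bcl11a and Fbn1 lost theirs without labelled-KO number 4 at 4 h. Of 28 named differences of responses, 16 lost the call in some alternative, and Dusp5, E2f8, Fbxw7, Lima1, Mki67, Mtus1, Ppfibp2, Prag1, Rhobtb2, Slc16a1, Tnip3 and Trim30d kept it in all that were run. The causes were not tested.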

Other observations

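Among the autosomes, the number of genes whose responses differed ran from 0 on chromosome 18 to 13 on chromosome 7, which held 7.69% of the tested genes, with Trim5 and Trim30d among them. On chromosome 8 there were 9 (5.41% of tested genes), among them Prag1, Zdhhc2, Mtus1, B430010I23Rik and Pcm1. Chromosome 1 held 11 (5.91%), among them Fcrlb, Fcgr2b, Slamf7 and Slamf1. Chromosome 15, where Nr4a1 lies, held 4 (3.84%), namely Pphln1, Rnd1, Lima1 and Pou6f1 in order of position. Lima1 (99778468 to 99875477) and Pou6f1 (100575318 to 100600061) were the closest of them to Nr4a1, whose position is given above. The part of this closeness in their responses was not tested. Genes outside the rule for naming were chosen here after their values were seen, and clustering was not tested.

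Of the 10 genes called in opposite directions, 9 rose in labelled-KO cells and fell in WT: Cass4, Clec7a, Dnajb4, Foxm1, Larp7, Lima1, Mtus1, Pou6f1 and Zfp608. Pou6f1, a POU domain factor, was at 1.34 in labelled-KO cells and -0.25 in WT, and Foxm1, a regulator of mitotic genes, at 0.55 and -0.65. The difference of responses itself passed in 8 of the 10, and did not in Clec7a and Zfp608.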
